A study of Mus musculus with 40 samples.

Results

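Transcripts of 10 genes that encode the Aurora and Polo kinases, their activators and the chromosomal passenger complex were followed in single mouse spermatocytes. The genes were chosen by symbol, and all 10 (Aurka, Aurkb, Aurkc, Plk1, Plk4, Incenp, Birc5, Cdca8, Tpx2 and Bora) were found among the 55492 genes of the deposited count table. The study holds 40 libraries, each made from 1 cell of the testis of C57BL/6J mice aged 6 to 8 weeks, of which 20 are named Pachytene and 20 Metaphase I. Pachytene spermatocytes had been separated by size through elutriation and placed in MEM-α with serum, and 4 µM okadaic acid for 5 h then drove them into metaphase I. Okadaic acid blocks serine/threonine phosphatases, chiefly PP2A and PP1. Every library carries the same protocol text, so the titles alone mark the Metaphase I cells as treated. Stage, drug and added culture time therefore cannot be told apart. The sources used here do not say if Pachytene cells also spent time in culture.

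Aurora and Polo kinases are serine/threonine kinases that drive entry into division, spindle assembly and chromosome segregation. Aurora A works at centrosomes and spindle poles, where TPX2 activates it, and together with BORA it phosphorylates and switches on PLK1. Aurora B, or in germ cells also Aurora C, forms the chromosomal passenger complex with the scaffold INCENP, survivin (Birc5) and borealin (Cdca8), which sits at centromeres and corrects faulty kinetochore attachments. PLK4 controls centriole duplication. Spermatocytes make and store many transcripts of the division machinery during the long pachytene stage, well before the first meiotic division.

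Total counts per cell ranged from 165048 to 2325564 (median 730979) in Pachytene and from 198117 to 1497037 (median 540662) in Metaphase I. Since the labels tie no cell to an animal or a culture, each group counts as 1 sample, the groups were not tested against each other, and no p-value is given. Levels are counts per 1000000 of a cell's total (CPM), or the summed counts of a group per 1000000 of its summed total. Intervals are exact 95% intervals and cover counting error only. The cell type label was checked with markers: all 10 pachytene and diplotene markers had counts in both groups, with a summed level of 18825 to 34062 CPM per cell in Pachytene and 10844 to 30317 CPM in Metaphase I. However, 8 libraries stood apart, with over 0.3% of counts from X-linked genes, which are silenced in pachytene, and in the others the share was at most 0.121%. These were Pachytene replicates 2, 3, 7 and 19 and Metaphase I replicates 3, 7, 17 and 19. In 7 of them spermatid markers (14 of 14 detected in each group) summed to between 2037 and 8208 CPM, against at most 1551 CPM in the libraries with a low X-linked share. Metaphase I replicate 19 instead had 17154 CPM of Sertoli cell markers, although Amh, Rhox5, Gata4 and Trf of that list were at 0. Metaphase I replicate 18, at 0.073% X-linked, had the lowest spermatocyte marker sum (10844 CPM) and 274 CPM of Sertoli markers. It was not among the 8 and stays in values given without them. Results that rest on the 8 libraries are given with and without them.

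Promoter sequences (RefSeq, GRCm38.p6) were matched by symbol for 6 of the 10 genes: Aurka, Aurkc, Plk1, Plk4, Birc5 and Cdca8. Those of Aurka, Birc5, Plk1 and Plk4 are shown because the results turn on these genes. From cell to cell, Aurka and Birc5 transcripts followed each other, and Plk1 and Plk4 transcripts did not follow each other. Each is the 120 bases before the RefSeq start, 5′ to 3′ on the gene's strand, with the letters CCAAT in capitals. These starts lie 4 to 68 bases upstream of the gene's first base in the deposited table. The CCAAT box is the element bound by the factor NF-Y, which is common upstream of cell cycle genes.
Aurka, chr2:172370571-172370690, minus strand: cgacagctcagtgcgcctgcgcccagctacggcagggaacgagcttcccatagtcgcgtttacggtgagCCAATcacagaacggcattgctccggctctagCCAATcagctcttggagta
Birc5, chr11:117849117-117849236, plus strand: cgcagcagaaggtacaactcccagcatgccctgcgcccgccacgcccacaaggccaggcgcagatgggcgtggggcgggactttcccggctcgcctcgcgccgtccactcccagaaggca
Plk1, chr7:122159315-122159434, plus strand: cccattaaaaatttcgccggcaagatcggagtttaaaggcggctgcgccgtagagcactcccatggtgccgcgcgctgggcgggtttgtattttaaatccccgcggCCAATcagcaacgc
Plk4, chr3:40799831-40799950, plus strand: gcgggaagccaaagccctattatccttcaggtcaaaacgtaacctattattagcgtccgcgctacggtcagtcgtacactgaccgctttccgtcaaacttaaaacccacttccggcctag

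Letter patterns were searched on both strands in the 250 bases before the start: CCAAT, the cell cycle homology region TTTGAA, the MYB site AACNGTT and the cyclic AMP element TGACGTCA. CCAAT was present for Aurka, Plk1 and Cdca8, 3 of the 6 genes, and in 33.8% of all 32851 promoters. The RefSeq starts of Aurkc and Cdca8 lie 85 and 2394 bases inside the gene of the deposited table. The Cdca8 window therefore falls within that gene's span and not upstream of it. The other patterns matched none of the 6 and stood in 16.0%, 3.80% and 1.55% of all promoters, respectively. A match is a description of the letters in this window, and no binding was measured.

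Aurka was, by counts per kilobase of exon, the most abundant Aurora transcript in every cell. The gene lies on chromosome 2 (172356190 to 172370535, minus strand, GRCm38, as are all gene positions here). In Pachytene cells it ranged from 87.1 CPM (replicate 2) through a median of 268 CPM to 862 CPM (replicate 12). In Metaphase I cells the range was 126 CPM (replicate 3) to 904 CPM (replicate 16), with a median of 453 CPM. The groups overlapped over nearly all of their range, and Aurka was detected in every cell. Summed over cells, its level was 397 CPM (388 to 407) and 408 CPM (398 to 419), a ratio of Metaphase I over Pachytene of 1.03 (0.992 to 1.06). This ratio was 0.912 (0.879 to 0.947) without the 8 libraries. The ratio of medians was larger, at 0.76 on the log2 scale, and was -0.08 without the 8 libraries.

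Tpx2, the spindle assembly factor that activates Aurora A (chromosome 2, 152847964 to 152895321, plus strand), was undetected in Pachytene replicate 5, where 3 counts would be 18.2 CPM. Its median was 56.9 CPM and its highest level 193 CPM in Pachytene. Metaphase I cells spanned 2.15 to 158 CPM with a median of 61.2 CPM. The 4 Pachytene libraries with a high X-linked share held 2.01 to 13.7 CPM, the lowest levels of the group beside replicate 5. Again the groups overlapped, and the ratio of the summed levels was 1.01 (0.922 to 1.11), or 0.900 (0.819 to 0.989) without the 8 libraries.

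Bora, the partner through which Aurora A activates PLK1 (chromosome 14, 99046222 to 99074540, plus strand), had the lowest median level per kilobase of the 10 genes. It was undetected in Pachytene replicate 5, reached 113 CPM in replicate 3, and had a median of 27.7 CPM. In Metaphase I it ran from 2.00 CPM (replicate 13) to 116 CPM (replicate 7) with a median of 27.5 CPM. The medians of the groups were nearly equal, and the ratio of summed levels was 0.911 (0.810 to 1.03). Libraries with a high X-linked share lay near the top: the 4 in Pachytene held 76.9 to 113 CPM and 3 of the 4 in Metaphase I 81.8 to 116 CPM. Replicate 7 of Pachytene alone gave 26.8% of the Pachytene counts, and without it the log2 ratio turned from -0.13 to 0.11. It was 0.09 without the 8 libraries.

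Aurkb, the kinase of the passenger complex in most cells (chromosome 11, 69045647 to 69051664, plus strand), had cells at or near 0 in both groups. It had no count in Pachytene replicate 7, where 3 counts would be 1.29 CPM, and reached 201 CPM in replicate 12, with a median of 29.7 CPM. In Metaphase I it was at 0 in replicate 14 (3 counts would be 2.94 CPM), reached 131 CPM in replicate 2, and had a median of 56.5 CPM. Cells below 10 CPM numbered 6 in Pachytene and 5 in Metaphase I, and 4 of these 11 were among the libraries with a high X-linked share. The direction between the groups depended on how cells were combined. Summed levels gave a 1.23-fold lower level in Metaphase I (1.12 to 1.35), or -0.29 on the log2 scale, whereas the medians gave 0.91 on the log2 scale. One cell, Pachytene replicate 6, held 30.6% of the Pachytene counts, and without it the log2 ratio of the sums was 0.03. Without the 8 libraries the sums gave -0.54 and the medians 0.06.

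Aurkc, the germ cell paralog of Aurora B (chromosome 7, 6995300 to 7003091, plus strand), was detected in every cell. Its levels ran from 1.53 CPM (replicate 10) through 56.2 CPM to 171 CPM (replicate 20) in Pachytene. In Metaphase I they ran from 1.96 CPM (replicate 14) through 46.0 CPM to 117 CPM (replicate 16). The summed level was 1.19-fold lower in Metaphase I (1.08 to 1.32), and the groups overlapped. These counts are uncertain, because 36.8% of the 100-base words in Aurkc transcripts also occur in Gm12463, Gm6909, Gm7151, Gm7210 or Gm7789. Aurka and Aurkb shared no such word with any other gene, and the longest run of bases common to Aurkb and Aurkc was 25.

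Counts of the paralogs were set against each other within each cell. Of the 9154 Aurora counts in Pachytene, 76.6% (75.8% to 77.5%) were Aurka, 12.4% Aurkb and 10.9% Aurkc. Of the 6970 in Metaphase I, these shares were 80.3% (79.3% to 81.2%), 10.3% and 9.35%. By medians over cells, Aurkc lay above Aurkb, at 11.6% against 8.74% in Pachytene and 8.38% against 8.08% in Metaphase I. Per kilobase of exon the pooled shares were 10.1% Aurkb and 17.2% Aurkc in Pachytene and 8.49% and 14.8% in Metaphase I. Per kilobase, Aurka held the largest share in each of the 40 cells. The lowest Aurka share per kilobase in any cell was 49.3%, in Pachytene replicate 19, where Aurkc made up 43.9%. These shares rest on 56 Aurka and 30 Aurkc counts, and since Aurkc counts are uncertain, so is the order in that cell. At the other end, Metaphase I replicate 14 held 98.0% Aurka and no Aurkb count. Median shares over cells were 75.4% and 78.5% for Aurka, a difference smaller than the range within either group.

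**Figure D1:**
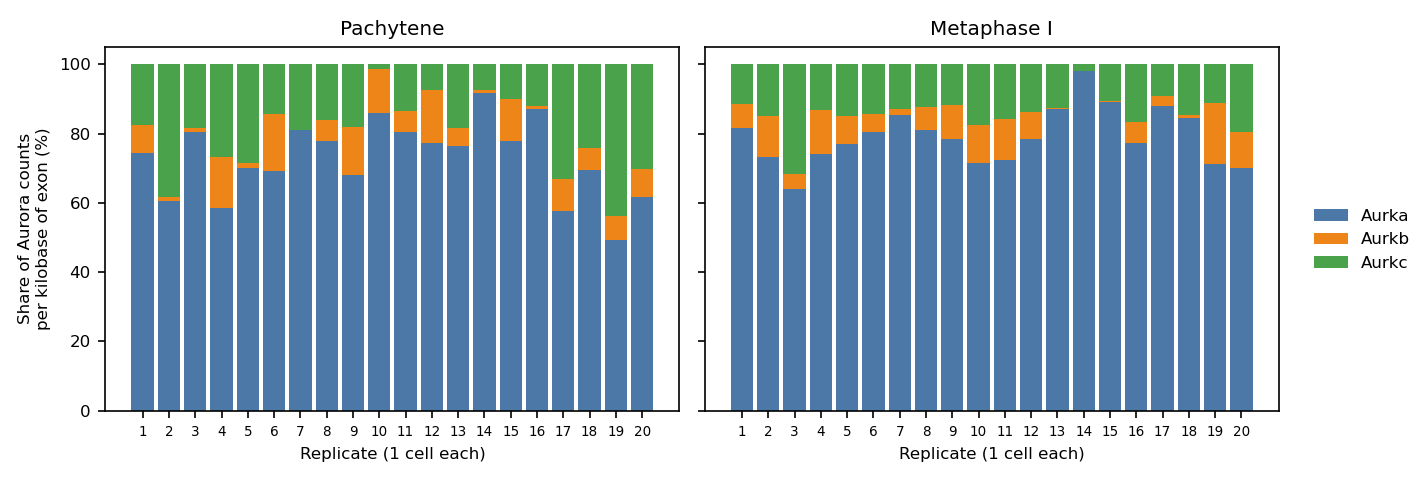
Share of Aurora kinase counts per kilobase of exon (percent, y axis) held by Aurka, Aurkb and Aurkc in each cell (x axis, replicate number) of Pachytene (left) and Metaphase I (right). Aurka forms the largest block in every bar, and its lowest share is 49.3% in Pachytene replicate 19.

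Incenp, the scaffold that binds and activates Aurora B and C (chromosome 19, 9872296 to 9899551, minus strand), was detected in every cell. Pachytene cells held 9.22 CPM (replicate 13) to 224 CPM (replicate 1), with a median of 51.4 CPM. Metaphase I cells held 10.0 CPM (replicate 13) to 390.3 CPM (replicate 16), with a median of 64.8 CPM. Both groups spanned more than an order of magnitude and overlapped. The summed level was 1.32-fold higher in Metaphase I (1.21 to 1.44), and leaving out any 1 cell kept the log2 ratio between 0.23 (without Metaphase I replicate 16) and 0.54.

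Birc5, which encodes survivin, the subunit that reads phosphorylated histone H3 at centromeres (chromosome 11, 117849251 to 117855743, plus strand), was above 50 CPM in every cell. It ranged from 53.0 CPM (replicate 19) through 235 CPM to 386 CPM (replicate 15) in Pachytene. In Metaphase I it ranged from 90.4 CPM (replicate 3) through 242 CPM to 528 CPM (replicate 16). Its summed ratio was 0.961 (0.915 to 1.01), or 0.897 (0.853 to 0.943) without the 8 libraries, and the groups overlapped. All 4 Pachytene libraries with a high X-linked share were the lowest of their group, at 53.0 to 110.5 CPM.

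Cdca8, which encodes borealin, the subunit that links survivin to INCENP and nucleosomes (chromosome 4, 124918465 to 124939311, minus strand), separated those 8 libraries from the rest. It was 1.74, 16.1, 26.2 and 29.0 CPM in Pachytene replicates 2, 3, 7 and 19, while the other 16 Pachytene cells held 149 to 472 CPM. Among Metaphase I cells, replicates 3, 7, 19 and 17 held 50.6, 70.7, 118 and 137 CPM, while the other 16 had 209 to 450.0 CPM. In both groups the 4 libraries thus lay below every other cell, and spermatid markers were high in 7 of the 8. Whether other cells contributed to these values was not tested. Group medians were 279.6 and 322 CPM, and the summed level was 1.25-fold higher in Metaphase I (1.20 to 1.31), or 1.14-fold (1.09 to 1.19) without the 8 libraries. An opposite-strand gene, 9930104L06Rik, overlaps Cdca8 and had 138 counts against 8441, and no source used here gives the strand setting.

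Plk1, the Polo kinase of mitotic and meiotic entry (chromosome 7, 122159439 to 122169873, plus strand), was below 10 CPM in 4 cells of each group. Pachytene replicates 14, 10, 16 and 17 held 1.35, 1.53, 4.52 and 5.55 CPM, whereas the highest cell, replicate 12, held 305 CPM and the median was 104 CPM. Metaphase I replicates 14, 13, 15 and 1 held 0.980, 2.67, 3.54 and 8.30 CPM, against 347 CPM in replicate 9 and a median of 168 CPM. In these 8 cells Cdca8 was at 208 to 429 CPM (medians of all Pachytene and Metaphase I cells 279.6 and 322). Aurka was at 138 to 176 CPM (268 and 453), below its group median in all 8. Birc5 was at 92.1 to 266 CPM (235 and 242) and Incenp at 10.0 to 36.4 CPM (51.4 and 64.8). Aurkb was at 0 to 33.3 CPM (29.7 and 56.5) and Aurkc at 1.53 to 61.0 CPM (56.2 and 46.0). The Metaphase I cells among them held 92.1 to 171 CPM of Birc5, below the group median. The summed level was 1.18-fold higher in Metaphase I (1.11 to 1.26), and the groups overlapped. On the log2 scale the sums gave 0.24, or 0.08 without Metaphase I replicate 20, and the medians gave 0.70, or 0.37 without the 8 libraries.

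Plk4, the centriole kinase (chromosome 3, 40800019 to 40816883, plus strand), was detected in every cell. It ranged from 6.06 CPM (replicate 5) through 67.0 CPM to 105 CPM (replicate 20) in Pachytene. In Metaphase I it ranged from 15.6 CPM (replicate 19) through 55.5 CPM to 106 CPM (replicate 12). The summed level was 1.28-fold lower in Metaphase I (1.17 to 1.41), and the log2 ratio stayed between -0.44 and -0.29 when any 1 cell was left out, although the groups overlapped. The table also lists Plk4 exons on a patch contig, and reads that map to both places may not have been counted. Of 303 named genes with exons on a chromosome and another contig, 75.6% had no count at all, compared with 34.7% of 23615 named genes on a chromosome alone. The effect of this on Plk4 was not tested, and its absolute level may be too low.

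**Figure D2:**
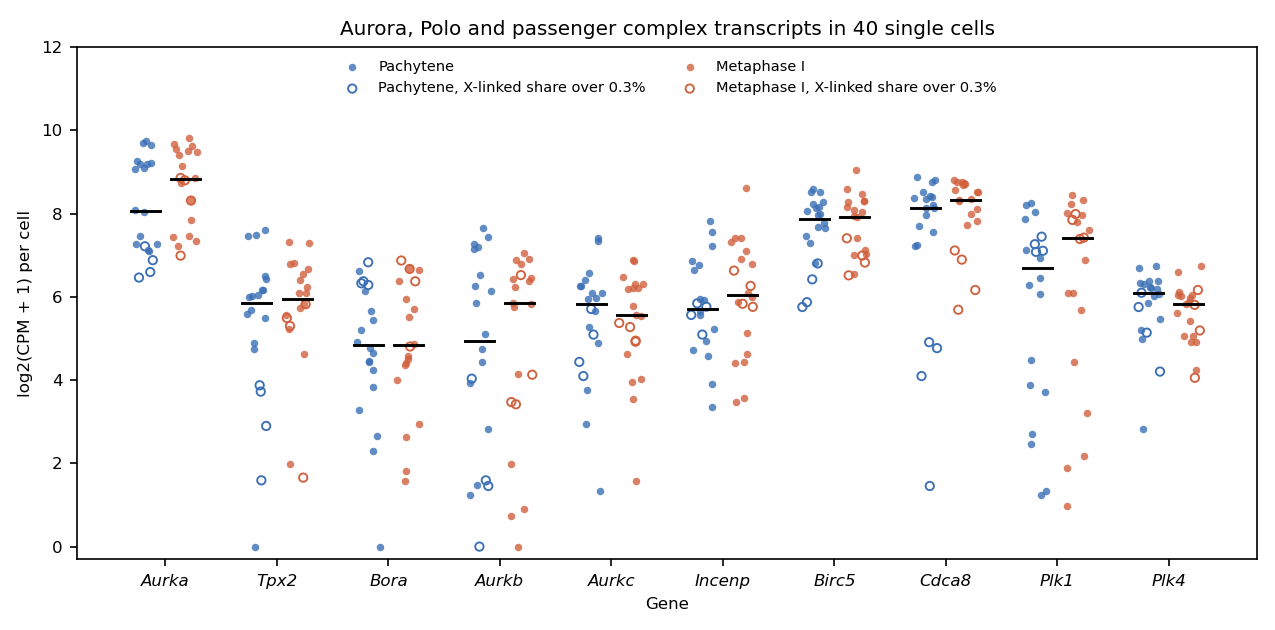
Level of each gene as log2(CPM + 1) (y axis) in 20 Pachytene cells (blue) and 20 Metaphase I cells (orange), 1 point per cell, with the group median as a black line and libraries over 0.3% X-linked counts as open circles. The groups overlap for all 10 genes, and the open circles are the lowest points of Cdca8 in both groups.

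None of the 10 genes was over 2-fold higher and none over 2-fold lower in Metaphase I, with every cell included. Of 16174 genes whose summed count reached 20, 8.49% were over 2-fold higher and 9.81% over 2-fold lower. Without the 8 libraries the count over the 10 genes was again 0 in each direction, against 6.32% higher and 4.13% lower of 13451 genes. Log2 ratios (with 1 CPM added to each group) ran from -0.35 for Plk4 to 0.39 for Incenp, an order that changed with the way cells were combined and with single cells left out. Their median was -0.02, with 5 above 0 and 5 below, and the median over all genes was -0.00. With 10 genes against such shares, nothing particular is read from a count of 0.

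**Figure D3:**
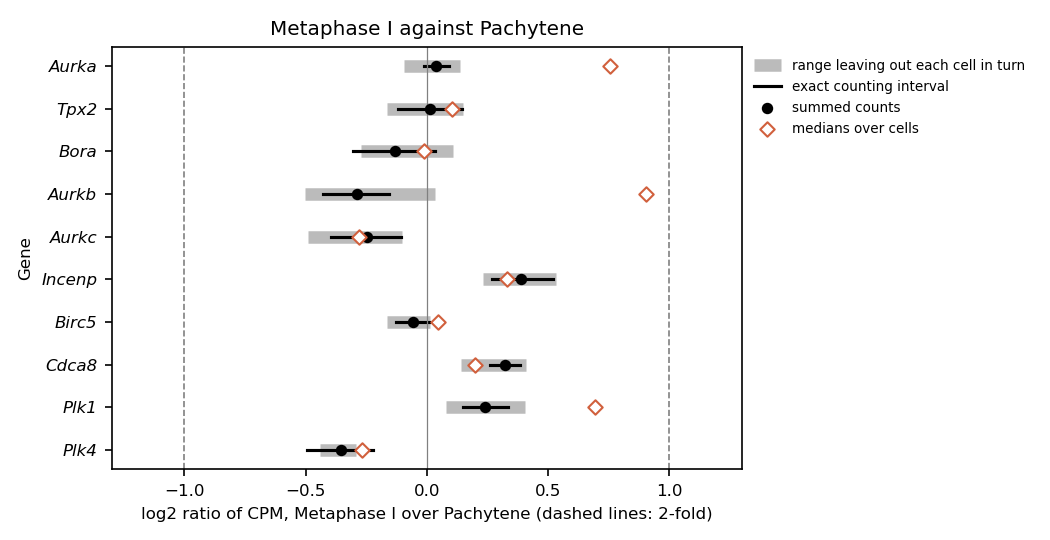
Log2 ratio of CPM, Metaphase I over Pachytene (x axis), for each gene (y axis): summed counts (black points) with the 95% counting interval (black lines), the range when each cell is left out in turn (grey bars), and the ratio of medians over cells (open diamonds). No value reaches the dashed lines at 2-fold, and the diamonds of Aurka, Aurkb and Plk1 lie far from their points.

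Apart from the Aurora shares, levels of different genes were ranked only per kilobase of exon. By median CPM per kilobase, the Pachytene order was Aurka (106), Birc5 (69.0), Cdca8 (54.0), Plk1 (47.1), Aurkc (36.9), Tpx2 (12.2), Incenp (11.9), Aurkb (10.1), Plk4 (9.78) and Bora (5.38). In Metaphase I it was Aurka (179), Plk1 (76.6), Birc5 (71.2), Cdca8 (62.1), Aurkc (30.2), Aurkb (19.2), Incenp (15.0), Tpx2 (13.1), Plk4 (8.10) and Bora (5.34). The ranges between quartiles overlapped for all neighbours in both orders but Aurkc (17.5 to 49.7) and Tpx2 (4.90 to 16.0) in Pachytene. For example, in Pachytene the ranges of Aurka (57.3 to 232) and Birc5 (42.7 to 84.6) overlapped, as did those of Tpx2 and Incenp (7.46 to 23.2). Plk1 stood below Cdca8 in Pachytene and next to Aurka in Metaphase I, with quartiles of 6.09 to 71.7 and 19.6 to 113. Since libraries captured 3′ ends, dividing by exon length may overcorrect long transcripts.

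The spread between cells of 1 group was wide, with the 8 libraries included. The coefficient of variation of CPM over Pachytene cells was 108% for Aurkb, 90.2% for Plk1 and 71.3% for Aurka, where counting alone would give 16.5%, 11.9% and 6.55% if each count were a molecule. The latter values are too small if counts are reads. For Plk4 it was 43.2%. In Metaphase I the same measure ran from 42.4% for Cdca8 to 95.0% for Incenp.

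Many of these transcripts varied together across the cells of a group. Spearman's rho is given as a description over the 20 cells of a group, which share the pooled library preparation, the CPM denominator and differences in depth. By the lower of its values in the 2 groups, the closest pair over all cells was Aurka with Birc5, at 0.86 in Pachytene and 0.80 in Metaphase I. Without the 8 libraries this pair was at 0.74 and 0.81, and Aurka with Plk1 was closer, at 0.88 and 0.91. Over all 45 pairs the median was 0.38 in Pachytene and 0.54 in Metaphase I, while the members' median with all 11037 other genes tested was 0.03 and -0.02. Pairs above 0.5 numbered 17 and 23, and 12 pairs were below 0 in each group. By the lower of the 2 group values, 0.112% (Plk4) to 7.33% (Aurka) of 8893 other named genes exceeded 0.5 with a member. That measure is stricter than a cut within 1 group, so it gives no background for the 17 and 23 pairs.

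The 3 Aurora genes and Birc5 correlated with each other at 0.68 or more in both groups, and at 0.62 or more without the 8 libraries. Aurkb and Aurkc correlated at 0.71 and 0.79 in Pachytene and Metaphase I, Aurka and Aurkb at 0.83 and 0.69, and Aurka with its activator Tpx2 at 0.68 and 0.90. Without the 8 libraries Tpx2 in Pachytene was at 0.53 with Aurka, 0.49 with Aurkb, 0.28 with Birc5 and 0.29 with Aurkc. Incenp correlated with Aurka at 0.54 and 0.83 and with Aurkc at 0.56 and 0.83. Plk1 went with the scaffold Incenp, at 0.66 and 0.82, and at 0.70 and 0.90 without those libraries. For Aurka and Plk1 the 8 libraries made a large difference: rho was 0.41 and 0.74 over all cells, and 0.88 and 0.91 without them. Plk1 with Birc5 gave 0.19 and 0.47 over all cells, and 0.62 and 0.75 without them.

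**Figure D4:**
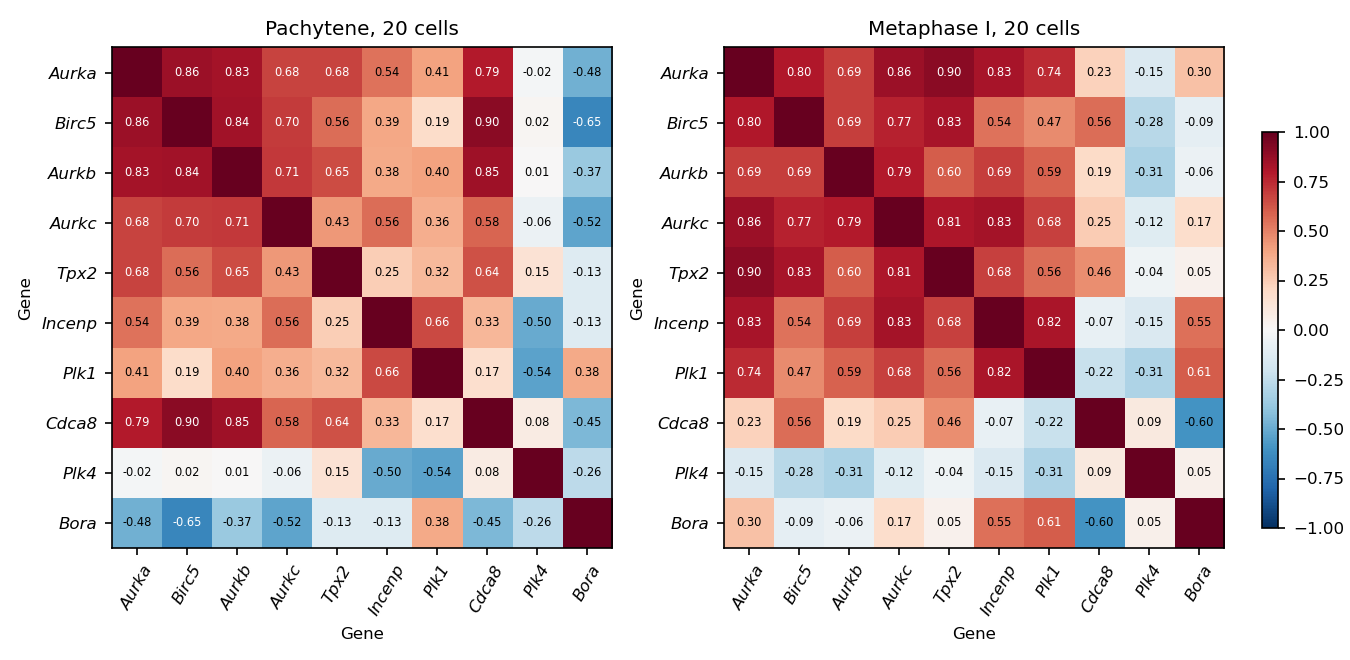
Spearman's rho of CPM between each pair of the 10 genes (both axes) across 20 Pachytene cells (left) and 20 Metaphase I cells (right), from -1 (blue) to 1 (red). Aurka, Birc5, Aurkb, Aurkc and Tpx2 correlate at 0.43 or more in both groups, and the Plk4 row holds no value above 0.15.

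Values of Cdca8 with other passenger genes were larger in Pachytene than in Metaphase I. In Pachytene it correlated with Birc5 at 0.90, Aurkb at 0.85 and Aurkc at 0.58. In Metaphase I these values were 0.56, 0.19 and 0.25. Without the 8 libraries they were 0.82, 0.81 and 0.51 in Pachytene and 0.22, 0.11 and 0.07 in Metaphase I. The difference between the groups was not tested. Incenp and Cdca8 correlated weakly, at 0.33 and -0.07. Plk1 and Cdca8 gave 0.17 and -0.22, and 0.59 and -0.08 without the 8 libraries.

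Plk4 correlated weakly or negatively with the other genes. The 9 values of Plk4 with the others ran from -0.54 (Plk1) to 0.15 (Tpx2) in Pachytene and from -0.31 to 0.09 in Metaphase I. Without the 8 libraries they were lower for most genes. They then ran from -0.67 (Incenp) to 0.05 (Bora) in Pachytene and from -0.56 (Birc5) to 0.00 (Bora) in Metaphase I. Bora and Cdca8 ran opposite ways, at -0.45 and -0.60, but at -0.03 and -0.46 without the 8 libraries. Bora went with Plk1 at 0.38 and 0.61, and with spermatid markers at 0.37 and 0.62, whereas Cdca8 and those markers gave -0.41 and -0.70. With the 8 libraries left out these were 0.14 and 0.60 for Bora with Plk1, -0.18 and 0.45 for Bora with the markers, and 0.14 and -0.51 for Cdca8 with the markers. The part of other cells in these values was not tested.

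**Figure D5:**
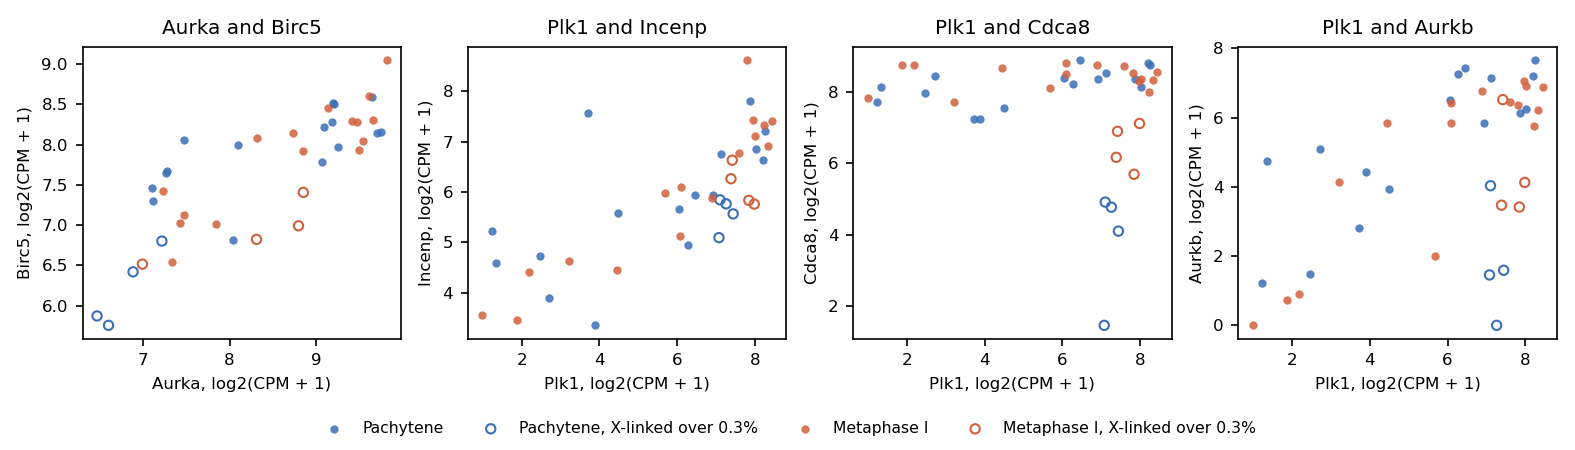
Level of 1 gene against another as log2(CPM + 1) per cell, for Aurka and Birc5, Plk1 and Incenp, Plk1 and Cdca8, and Plk1 and Aurkb, in Pachytene (blue) and Metaphase I (orange) cells, with libraries over 0.3% X-linked counts as open circles. In the cells with Plk1 below 10 CPM, Cdca8 (208 to 429 CPM) lies within the 149 to 472 CPM of all filled points. The open circles lie lower, at 1.74 to 137 CPM.

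Levels of cyclin B1 and its kinase were set beside the members. Ccnb1, which encodes cyclin B1, correlated with Plk1 at 0.88 in both groups and with Incenp at 0.77 and 0.87. Its rho with Cdca8 was 0.09 and -0.17, and with Plk4 -0.64 and 0.07. Cdk1, the kinase that cyclin B activates, correlated with Aurka at 0.91 and 0.70, and with Plk1 at 0.42 and 0.58. Ccnb1 with Aurka gave 0.42 and 0.77. Without the 8 libraries, Ccnb1 and Aurka were at 0.80 and 0.84, and Cdk1 and Plk1 at 0.93 and 0.82. Ccnb1 then gave 0.84 and 0.89 with Plk1, and 0.84 and 0.86 with Incenp. With Cdca8 it gave 0.38 and -0.06, and with Plk4 -0.72 and 0.05. Cdk1 and Aurka were then at 0.86 and 0.81. Over all cells, depth went with Aurka in opposite directions in the groups. The rho of total counts and Aurka CPM was 0.20 in Pachytene and -0.51 in Metaphase I.

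Genes whose levels were most like each member were ranked by the lower of the 2 group values of rho over 8893 candidate genes. Fam118b was the most like Aurka (0.88) and also the most like Birc5 (0.85), and Wbp2 followed for Aurka (0.87). Exosc3, a subunit of the RNA exosome, was the most like Aurkb (0.83), and Ghrl, which encodes ghrelin, the most like Aurkc (0.82). For Plk1 these were Snx3 (0.89), Adad1 (0.88) and Dnajb14 (0.88), and for Incenp Ccnb1 (0.77), Rfx8 (0.77) and Faf2 (0.76). Wdr48 led for Tpx2 (0.88), Pcbp1 for Cdca8 (0.72) and Ttc41 for Bora (0.74). Plk4 had few genes like it, led by Abcf1 (0.60): 10 candidates exceeded 0.5 for Plk4, compared with 652 for Aurka and 567 for Plk1. A likeness over 0.5 to Aurka or Plk1 was thus not limited to genes of the pathway.

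Other genes of the pathway were read from 9 lists with 71 entries, of which 67 were in the table. The entries not found, Gsg2, Sgol1, Sgol2a and Sgol2b, are older symbols of Haspin, Sgo1, Sgo2a and Sgo2b, which were found. A summed count of 20 or more was reached by 59 genes. Of these 59, 4 (6.78%) were over 2-fold higher and 1 (1.69%) over 2-fold lower in Metaphase I, against the 8.49% and 9.81% of all genes. Their median log2 ratio was 0.16. Neither share is above the background, and the groups overlapped for all 5 genes. Without the 8 libraries 1 of them, Ckap5, was past 2-fold.

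Among 8 measured Aurora A activators and spindle partners, 1 was over 2-fold higher. Ckap5, a microtubule polymerase, had summed levels of 20.7 CPM in Pachytene and 43.0 CPM in Metaphase I, or 2.08-fold (1.82 to 2.38), and leaving out Metaphase I replicate 13 took its log2 ratio from 1.02 to 0.64. Any 1 of 12 cells, when left out, brought Ckap5 under 2-fold. Pcm1, of centriolar satellites, was at 241 and 300 CPM, a log2 ratio of 0.31. The passenger complex recruitment list had 4 measured genes and none past 2-fold. Haspin, the kinase that marks histone H3 for survivin, was at 806 and 698 CPM, with a log2 ratio of -0.21. Sgo2a, a shugoshin that protects centromeric cohesion, had 0.33.

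Passenger complex substrates and midzone partners held 1 of 10 genes past 2-fold. Kif20a, a midzone kinesin, had 8.66 and 19.0 CPM, or 2.20-fold (1.79 to 2.70), and leaving out any 1 of 6 cells, or the 8 libraries (0.98 on the log2 scale), brought it under 2-fold. Stmn1, a microtubule destabiliser, had 135 and 223 CPM and a log2 ratio of 0.72, although its ratio of medians was -0.04. Of the Polo kinase 1 partners and substrates, 1 of 10 was higher and 1 lower. Bub1b, the checkpoint kinase BubR1, had 35.6 and 76.7 CPM, or 2.15-fold (1.95 to 2.38). Replicate 13 of Metaphase I, when left out, took its log2 ratio from 1.09 to 0.86, and it was 0.97 without the 8 libraries. Mybl2 was 3.01-fold lower (1.92 to 4.88), yet 58.8% of its 97 Pachytene counts came from replicate 7, and its log2 ratio was -0.35 without that cell, compared with -1.20.

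The other Polo-like kinases were rare. Plk2 was 4.74-fold higher (3.42 to 6.69) in Metaphase I, but 83.2% of its 173 counts there came from replicate 19, the cell with Sertoli markers, and without it the log2 ratio was -0.18 in place of 1.90. None of the 7 genes of Polo kinase 4 and centriole assembly passed 2-fold. The 2 with the largest log2 ratios were Cep152 (0.89), which recruits PLK4, and Cenpj (0.68), a centriole elongation factor. Neither the 6 measured cyclin and cyclin-dependent kinase genes nor the 7 degradation genes nor the 5 spermatocyte transcription factors held a gene past 2-fold. Ccnb2 had 0.29 and Ccna1 0.26 in the first of these lists, Cdc20, an activator of the anaphase-promoting complex, 0.26 and Usp44 -0.32 in the second, and Mybl1, the A-MYB factor of pachytene, 0.45 and Taf7l2 -0.34 in the third.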

How the data were processed

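Per the labels' protocols, cDNA was primed from poly(A) tails with cell barcodes (modified STRT-seq), amplified for 20 and, after pooling, 4 PCR cycles, and its 3′ ends were sequenced as 150 bp pairs. UMI-tools, STAR and featureCounts with GRCm38 were used, per the submitters' processing notes. Raw counts per gene in 40 cells, with exon lengths, were deposited as 1 table, per the file headers. No source used here says if counts are reads or UMIs, or gives the strand setting.

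Counts were divided by each column's total (CPM). Groups were compared by summed counts with a pseudocount of 1 CPM and a minimum summed count of 20, and over 2-fold was called. Fold intervals were exact conditional binomial, sums exact Poisson and shares Clopper-Pearson. For rank correlations this minimum was 100. Scripts used Python 3.11.15, scipy 1.17.1, edgeR 4.0.16 (TMM) and DESeq2 1.42.0 (size factors), and the ratio was tested on simulated data. The closest of 380 library pairs within groups differed by a chi-square per degree of freedom of 2.69, and pairs between groups were not compared.

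Named were all 10 members, the 2 genes with the largest log2 ratio of each pathway list (summed count of 100 or more), genes past 2-fold, and up to 3 genes most like each member with a median of 10 CPM or more in both groups. Ribosomal, mitochondrial and unnamed genes were left out of the last. Cdk1 and Ccnb1 were also compared as reference genes. The members and lists were chosen with earlier results of these data known. Alternatives were equal weight per cell, medians, thinning to 340000 counts (leaving out 4 cells), other scalings, pseudocounts and minimums, and leaving out libraries.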

Additional observations from a re-analysis of the deposited data

How the results depend on the processing

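The number of the 10 genes past 2-fold was 0 in each direction under all 12 other settings and when each of the 40 cells was left out. The median log2 ratio over the 10 genes, -0.02 as reported, was 0.13 with equal weight per cell, 0.15 with medians over cells, 0.075 with cells thinned to 340000 counts and -0.14 without the 8 libraries over 0.3% X-linked counts. Leaving out 1 cell gave -0.13 (without Pachytene replicate 7) to 0.056 (without Metaphase I replicate 3), and the cause was not tested. TMM scaling moved the median of all genes to -0.046. Log2 ratios of Aurkc, Plk4, Incenp, Cdca8 and Plk1 kept their sign in all of these settings, and those of Aurka, Aurkb, Birc5, Tpx2 and Bora did not. The median rho over 45 pairs was 0.38 in Pachytene, with 0.31 to 0.40 when 1 cell was left out, and 0.54 in Metaphase I, with 0.47 to 0.55. Leaving out single cells for correlations and for the other pathway genes was chosen after seeing the data. No paired analysis was possible because the result comes from no test and replicate numbers only name cells. At 165048 counts, the smallest total, 3 counts are 18.2 CPM, which limits what low single-cell levels show.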
